A study of Mus musculus with 9 samples.

Results

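The genes described here hold epithelial cells to one another: E-cadherin (Cdh1), the epithelial adhesion molecule Epcam, and 8 genes of the desmosome (Dsg2, Dsc2, Jup, Pkp1, Pkp2, Pkp3, Dsp and Perp). They were chosen by symbol, as all probe sets whose only gene symbol in GEO's platform annotation was one of these 10. The rule found 23 of the 45037 probe sets analysed, of which 34945 carried 1 symbol and stood for 18193 genes. Of the 23 probe sets, 17 passed the filter on low signals, and every one of the 10 genes had at least 1 that passed.

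Transcripts were measured on Affymetrix Mouse 430 2.0 arrays in cultured lung cells that the labels call type II, the epithelial cells that make surfactant. The 9 arrays formed 3 groups of 3: Nrf2-/- cells supplemented with GSH (the usual abbreviation of glutathione, an antioxidant tripeptide), Nrf2-/- cells, and Nrf2+/+ cells. NRF2 is a transcription factor that activates genes of antioxidant defence and detoxification, and the series title names the contrast of Nrf2-/- with wild-type cells. All 3 groups are labelled ICR10 strain, female and 2 months of age, and all came from dispase-digested lungs, were depleted of adherent cells and were kept for 5 days in keratinocyte growth factor on coated plates (collagen and fibronectin). No label states the dose or duration of GSH, and each array is marked untreated in the treatment field. Neither separate animals nor separate cultures are stated for the arrays of a group, so p-values here reflect array-to-array spread alone, and that spread may be technical.

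Desmosomes are spot-like junctions that anchor the keratin filaments of neighbouring epithelial cells to each other. Their cadherins, the desmogleins and desmocollins, bind across the gap between cells, and inside the cell plakoglobin (Jup) and the plakophilins link the cadherin tails to desmoplakin, which binds keratin. E-cadherin forms the adherens junction beside them and is coupled to actin through catenins. In the lung these junctions belong to airway and alveolar epithelium, and repressors of the SNAI and ZEB families, which bind E-box sequences in the promoter of Cdh1, are known for silencing such genes when epithelial cells take on mesenchymal features.

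Values are array signals in arbitrary units, on a linear scale on which every array had been brought to a 2% trimmed mean of 500. Differences are log2 differences from limma, fitted to all 9 arrays with the set number in the sample titles as a covariate, and called at a Benjamini-Hochberg adjusted p under 0.05 over 22519 probe sets. Set 2 holds 2 arrays of each group and set 3 holds 1, and no label explains the set number. Each gene is represented by its probe set with the highest mean log2 signal. Signals of different genes come from different probes and are not compared with each other. Nfe2l2, which encodes NRF2, read 33.3 to 46.2 in knockout cells with GSH, 28.7 to 77.4 in knockout cells and 3879 to 4173 in wild-type cells, with control probe sets at 43.4 to 82.9. Sex-linked transcripts followed genotype and went against the labels: the Y-linked Eif2s3y read 1.9 to 16.2 with GSH, 1.5 to 24.4 in knockout and 701 to 936 in wild-type cells. In both comparisons with wild type, genotype and this difference cannot be told apart.

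RefSeq promoter sequences, on build GRCm38.p6 and running from 250 bases before to 50 bases after each annotated start, could be matched by symbol for 3 of the 10 members: Epcam (chr17:87635729-87636028, plus strand), Dsp (chr13:38151044-38151343, plus strand) and Jup (chr11:100397741-100398040, minus strand). They are shown to give the sequence at the start of members described here, and capitals mark the E-box CACCTG or its reverse complement CAGGTG.
Epcam: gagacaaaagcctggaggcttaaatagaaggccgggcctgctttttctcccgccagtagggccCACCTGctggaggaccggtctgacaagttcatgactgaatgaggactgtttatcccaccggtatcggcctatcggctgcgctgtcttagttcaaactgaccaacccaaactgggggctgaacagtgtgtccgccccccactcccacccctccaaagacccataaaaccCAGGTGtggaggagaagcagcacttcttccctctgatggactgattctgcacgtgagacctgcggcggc
Dsp: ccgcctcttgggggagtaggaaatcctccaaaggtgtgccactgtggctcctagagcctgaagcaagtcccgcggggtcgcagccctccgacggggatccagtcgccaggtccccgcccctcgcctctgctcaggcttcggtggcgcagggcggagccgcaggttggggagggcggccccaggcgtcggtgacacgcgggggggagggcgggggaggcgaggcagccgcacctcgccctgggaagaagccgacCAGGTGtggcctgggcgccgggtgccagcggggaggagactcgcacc
Jup: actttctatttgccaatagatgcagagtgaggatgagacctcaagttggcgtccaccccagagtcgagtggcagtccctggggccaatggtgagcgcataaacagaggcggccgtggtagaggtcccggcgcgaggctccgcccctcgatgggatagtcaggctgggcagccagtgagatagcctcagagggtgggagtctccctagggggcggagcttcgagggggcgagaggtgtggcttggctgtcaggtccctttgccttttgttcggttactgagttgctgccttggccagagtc
The Epcam window held the motif at -187 and -19 relative to the start, and the Dsp window held it at 4, just downstream of the start. The Jup window held none. Of 32851 mouse promoter windows of this length, 20.2% held the E-box on either strand. None of the 3 windows held a grainyhead-like motif (AACCNGTT or AACNGGTT, in 2.09% of all windows), an antioxidant response element core (TGACNNNGC or GCNNNGTCA, in 12.4%) or an AP-1 motif (TGANTCA, in 7.81%). A match of letters is a description and not a measured binding site.

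Knockout cells with GSH had more transcript than knockout cells without it for all 10 genes, by 0.80 to 2.22 on the log2 scale for 9 of them. The other, Pkp1, passed the filter only through its signal with GSH and so had to differ. Called genes and medians are therefore given here with and without it. Among the 11620 genes tested, 19.7% were called higher and 19.8% lower in the same comparison. The median difference was 1.69 over the 10 members and 1.62 over the 9, against 0.01 over all genes. Knockout cells had less than wild-type cells for 8 of the 10 members (limma adjusted p from 6.3e-08 to 9.1e-05), against 15.7% of all genes called lower and 16.7% called higher. The 2 that did not pass were Pkp1 and Pkp3, so without Pkp1 8 of 9 were lower. The median was -1.22 over the 10 members and -1.31 over the 9, against 0.01 over all genes. Between knockout cells with GSH and wild-type cells, 5 members were higher (Cdh1, Epcam, Dsp, Pkp1 and Dsg2) and 0 were lower, against 23.5% of all genes called higher and 24.5% lower, and the median was 0.43, against 0.00 over all genes. Without Pkp1, 4 of 9 were higher, with a median of 0.42. These comparisons share arrays of each group with one another, so they are not independent. In RNA from mixed cultures, fewer cells of a type and less RNA per cell cannot be told apart.

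**Figure D1:**
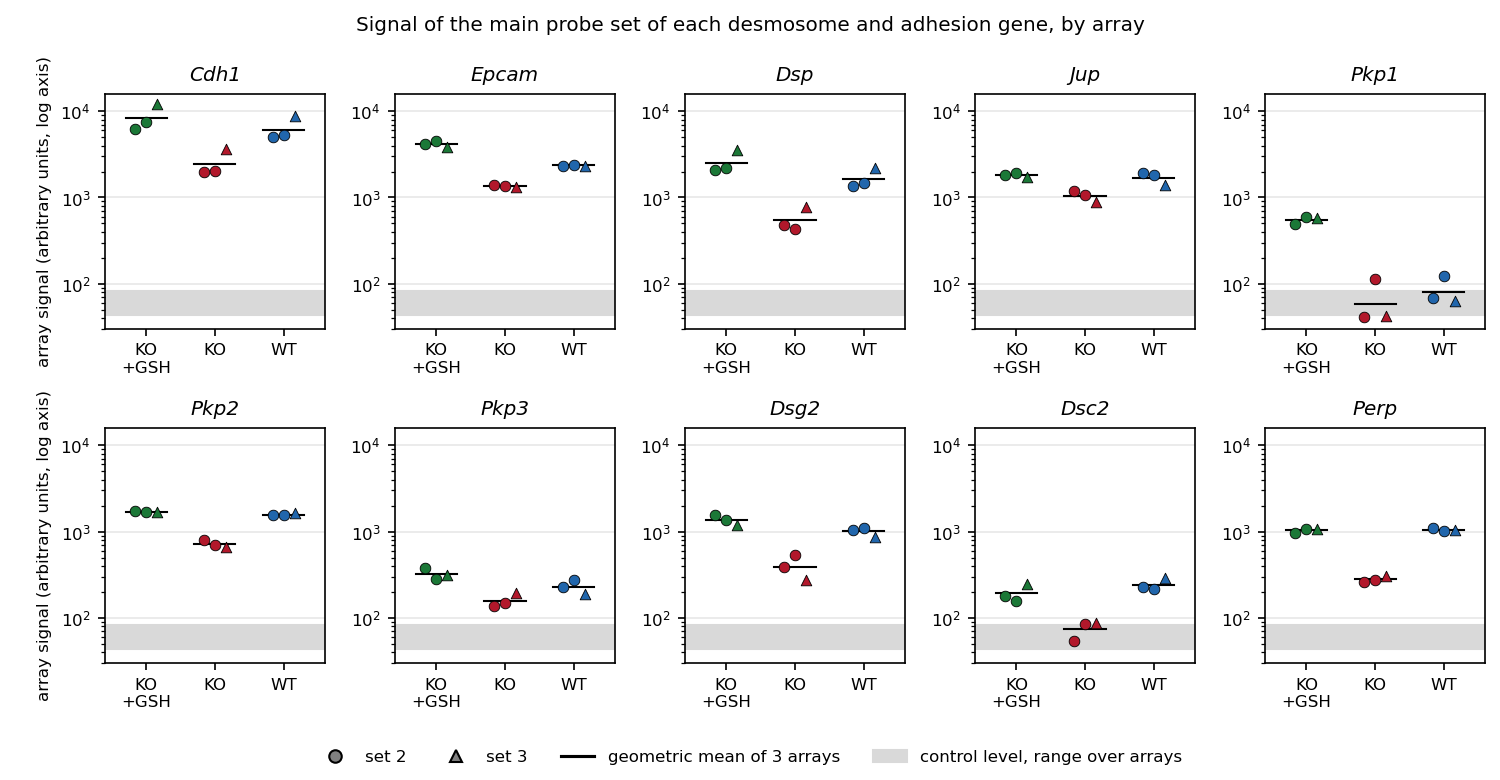
Signal of the main probe set of each of the 10 genes on each of the 9 arrays (log axis, arbitrary units), by group from left to right: knockout with GSH, knockout, wild type. Circles are set 2 arrays, triangles set 3 arrays, lines geometric means and the grey band the range of the control level over arrays. All 10 genes, Pkp1 included, had their 3 arrays with GSH above their 3 knockout arrays.

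E-cadherin, the homophilic adhesion receptor of adherens junctions, stood at 6302, 7511 and 11990.1 in knockout cells with GSH, against 1996, 2046 and 3684 in knockout cells and 4969.9, 5268 and 8765 in wild-type cells (probe set 1448261_at, replicates in order, the last of each group from set 3). The knockout arrays lay below all arrays of the other groups, whereas the arrays with GSH and the wild-type arrays overlapped. Means were 8601 ± 2997 with GSH, 2575 ± 960 in knockout and 6335 ± 2110 in wild-type cells (SD, n = 3 each, limma). Cdh1 was 3.35-fold higher with GSH than in knockout cells (log2 difference 1.75, 95% interval 1.59 to 1.90, limma adjusted p = 7.7e-09) and 2.48-fold lower in knockout than in wild-type cells (log2 difference -1.31, adjusted p = 1.7e-07). The set 3 array was the highest of its group each time, 1.74-fold above the set 2 mean with GSH, 1.82-fold in knockout and 1.71-fold in wild-type cells. Cdh1 in cells with GSH exceeded wild-type cells by 0.44 (0.28 to 0.59, limma adjusted p = 0.00042), and this call was lost when the set was left out of the model (limma adjusted p = 0.35).

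Epcam, a surface glycoprotein of simple epithelia that is used to sort them, read 4181, 4505 and 3881 in knockout cells with GSH, against 1383, 1372 and 1314 in knockout cells and 2330.1, 2404 and 2339 in wild-type cells (1416579_a_at). The 3 groups formed 3 separate levels, with GSH highest and knockout lowest. The log2 difference was 1.62 with GSH over knockout (3.08-fold, limma adjusted p = 5.1e-09) and -0.80 for knockout against wild-type cells (1.74-fold lower, adjusted p = 3.2e-06). Cells with GSH also exceeded wild-type cells, by 0.83 (0.69 to 0.97, 1.77-fold, limma adjusted p = 9.1e-07). The other Epcam probe set gave log2 differences of 2.15, -1.30 and 0.86 for the same 3 comparisons, all called. Its promoter window is the one above with the E-box at -187 and -19.

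The desmosomal cadherins Dsg2 and Dsc2 are the widely expressed isoforms of their families and the ones found in simple epithelia. Dsg2 read 1548, 1352 and 1184 in knockout cells with GSH, against 387, 538 and 274 in knockout cells and 1056, 1113 and 873 in wild-type cells (1439476_at). The knockout arrays were apart from the others, and all 3 arrays with GSH were above all 3 wild-type arrays, the nearest pair being 1184 and 1113. Dsg2 was 3.52-fold higher with GSH than in knockout cells (log2 difference 1.81, limma adjusted p = 1.2e-06) and 2.62-fold lower in knockout than in wild-type cells (-1.39, adjusted p = 1.9e-05). The excess over wild type with GSH was 0.42 (0.12 to 0.72, limma adjusted p = 0.026); it was lost in 9 of 20 alternative settings, and the other 3 Dsg2 probe sets that passed the filter, at 0.22 to 0.34, were not called. A Dsg2 probe set left out by the filter (1426153_a_at) read 107, 108 and 105 with GSH and 116, 107 and 79.7 in wild-type cells, but 41.0, 6.0 and 18.7, no higher than control probe sets, on the knockout arrays. It was therefore at least 1.98-fold higher with GSH than in knockout cells and at least 1.84-fold lower in knockout than in wild-type cells. The other left-out Dsg2 probe set (1449741_at) had overlapping groups and differed by 0.71 with GSH against knockout and by -0.33 for knockout against wild type (limma adjusted p = 0.30 and 0.69, without the filter).

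Dsc2 had weaker signals, at 181, 156 and 250.0 in knockout cells with GSH, against 53.8, 83.9 and 88.4 in knockout cells and 228, 217 and 287 in wild-type cells (1426911_at). The knockout arrays were the lowest, and the arrays with GSH overlapped with the wild-type arrays. The mean was 2.61-fold higher with GSH than in knockout cells (log2 difference 1.38, limma adjusted p = 0.00029) and 3.29-fold lower in knockout than in wild-type cells (-1.72, adjusted p = 9.1e-05). Against wild-type cells, Dsc2 with GSH differed by -0.34 (-0.79 to 0.12, limma adjusted p = 0.21), the lowest of the members in that comparison. The left-out Dsc2 probe set (1421156_a_at), fitted without the filter, gave 1.04, -0.85 and 0.19 for the 3 comparisons (limma adjusted p = 0.012, 0.044 and 0.65).

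Jup encodes plakoglobin, the catenin relative that sits in both desmosomes and adherens junctions. It read 1800, 1907 and 1733 in knockout cells with GSH, against 1181, 1081 and 879 in knockout cells and 1906, 1821 and 1397 in wild-type cells (1426873_s_at). The lowest array outside the knockout group, the set 3 wild-type array at 1397, still exceeded every knockout array. Jup had the smallest difference of the members with GSH over knockout, 0.80 (1.74-fold, limma adjusted p = 1.7e-05), and was 1.63-fold lower in knockout than in wild-type cells (-0.70, adjusted p = 7.9e-05). Cells with GSH and wild-type cells differed by 0.10 (-0.08 to 0.28, limma adjusted p = 0.37). Its promoter window is the one without an E-box.

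The plakophilins are armadillo proteins of the desmosomal plaque, and the 3 differed in pattern. Pkp1, which in skin belongs to the upper layers of stratified epithelium, read 496, 592 and 579 in knockout cells with GSH, against 41.1, 112 and 42.7 in knockout cells and 68.4, 122 and 63.4 in wild-type cells (1449586_at). Signals exceeded the control level on 3 of 3 arrays with GSH, on 1 of 3 knockout arrays and on 3 of 3 wild-type arrays. The geometric mean was 554 with GSH but 68.5 over the 6 other arrays, under the filter's 116, so the group with GSH decided that Pkp1 was tested at all. The fit gave a log2 difference of 3.25 with GSH against knockout (2.46 to 4.04) and 2.78 against wild type (1.99 to 3.57). Both were called, but the filter kept Pkp1 only on its signal with GSH. These calls are therefore no test of that rise. With knockout signals this close to the control level, no exact fold is given. Knockout and wild-type cells differed by -0.47 (-1.27 to 0.32, limma adjusted p = 0.37). Knockout replicate 3 decided that result, since without it the difference was -0.92 with a limma adjusted p = 0.042.

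Pkp2, the plakophilin of simple epithelia and heart, was nearly constant within groups, at 1736, 1693 and 1691 in knockout cells with GSH, against 789, 707 and 661 in knockout cells and 1542, 1547 and 1628 in wild-type cells (1429183_at). No array of the knockout group came near those of the other groups. It was 2.38-fold higher with GSH than in knockout cells (log2 difference 1.25, limma adjusted p = 2.8e-07) and 2.19-fold lower in knockout than in wild-type cells (-1.13, adjusted p = 1.1e-06). Cells with GSH and wild-type cells differed by 0.12 (-0.05 to 0.29, limma adjusted p = 0.25). The other Pkp2 probe set that passed the filter gave 1.37, -1.31 and 0.06. Of those left out by the filter, 1460511_at exceeded the control level on all arrays. It averaged 153 with GSH, 96.3 in knockout and 99.8 in wild-type cells. Without the filter it gave 0.70, -0.08 and 0.62 (limma adjusted p = 0.08, 0.89 and 0.1), so it did not show the fall in knockout cells. The left-out 1420259_at exceeded the control level on no array.

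Pkp3, found in most desmosomes of simple and stratified epithelia, read 374, 283 and 311 in knockout cells with GSH, against 136, 149 and 195 in knockout cells and 227, 278 and 191 in wild-type cells (1418831_at). The arrays with GSH were the highest, and knockout and wild-type arrays overlapped. Pkp3 was 2.03-fold higher with GSH than in knockout cells (log2 difference 1.02, limma adjusted p = 0.0021). Knockout and wild-type cells differed by -0.54 (-0.98 to -0.09, limma adjusted p = 0.069), with -0.82 within set 2 and 0.03 within set 3. That difference was called without knockout replicate 4 (-0.76, limma adjusted p = 0.023) and without wild-type replicate 5 (-0.73, adjusted p = 0.036), the arrays of set 3. Pkp3 with GSH against wild type was 0.49 (0.04 to 0.93, limma adjusted p = 0.072), and was called without wild-type replicate 4 (0.64, adjusted p = 0.046) and without knockout replicate 4 (0.49, adjusted p = 0.045). The left-out Pkp3 probe set (1418832_at), fitted without the filter, gave 1.78, -0.61 and 1.17 for the 3 comparisons (limma adjusted p = 0.008, 0.39 and 0.054).

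Desmoplakin (Dsp), which ties the plaque to keratin filaments, read 2088, 2208 and 3508 in knockout cells with GSH, against 477, 431 and 773 in knockout cells and 1354, 1478 and 2201 in wild-type cells (1435493_at). Every knockout array was below every array of the other groups, and the set 3 wild-type array overlapped with the set 2 arrays with GSH. Dsp was 4.67-fold higher with GSH than in knockout cells (log2 difference 2.22, limma adjusted p = 1.9e-09) and 3.03-fold lower in knockout than in wild-type cells (-1.60, adjusted p = 6.3e-08). With GSH it exceeded wild-type cells by 0.63 (0.46 to 0.79, limma adjusted p = 3.9e-05), a call lost without the set in the model (adjusted p = 0.13). Its other probe sets gave 2.62, -2.07 and 0.56 (1435494_s_at) and 1.99, -1.38 and 0.62 (1427610_at). The probe sets differed in how set 3 compared with set 2: the main one was 1.63-fold higher in set 3 with GSH, 1.70-fold in knockout and 1.56-fold in wild-type cells, whereas 1427610_at stood at ratios of 0.74, 0.67 and 0.68. The differences between groups had the same direction in all 3 probe sets.

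Perp, a tetraspan membrane protein of desmosomes that is also known as a target of p53 and p63, read 968, 1059 and 1079 in knockout cells with GSH, against 262, 275 and 308 in knockout cells and 1094, 1028 and 1052 in wild-type cells (1416271_at). The arrays with GSH and the wild-type arrays overlapped, and knockout arrays lay far below both. Perp was 3.68-fold higher with GSH than in knockout cells (log2 difference 1.88, limma adjusted p = 2.9e-08) and 3.76-fold lower in knockout than in wild-type cells (-1.91, adjusted p = 6.3e-08), the largest fall among the members. Cells with GSH and wild-type cells differed by -0.03 (-0.23 to 0.17, limma adjusted p = 0.80).

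**Figure D2:**
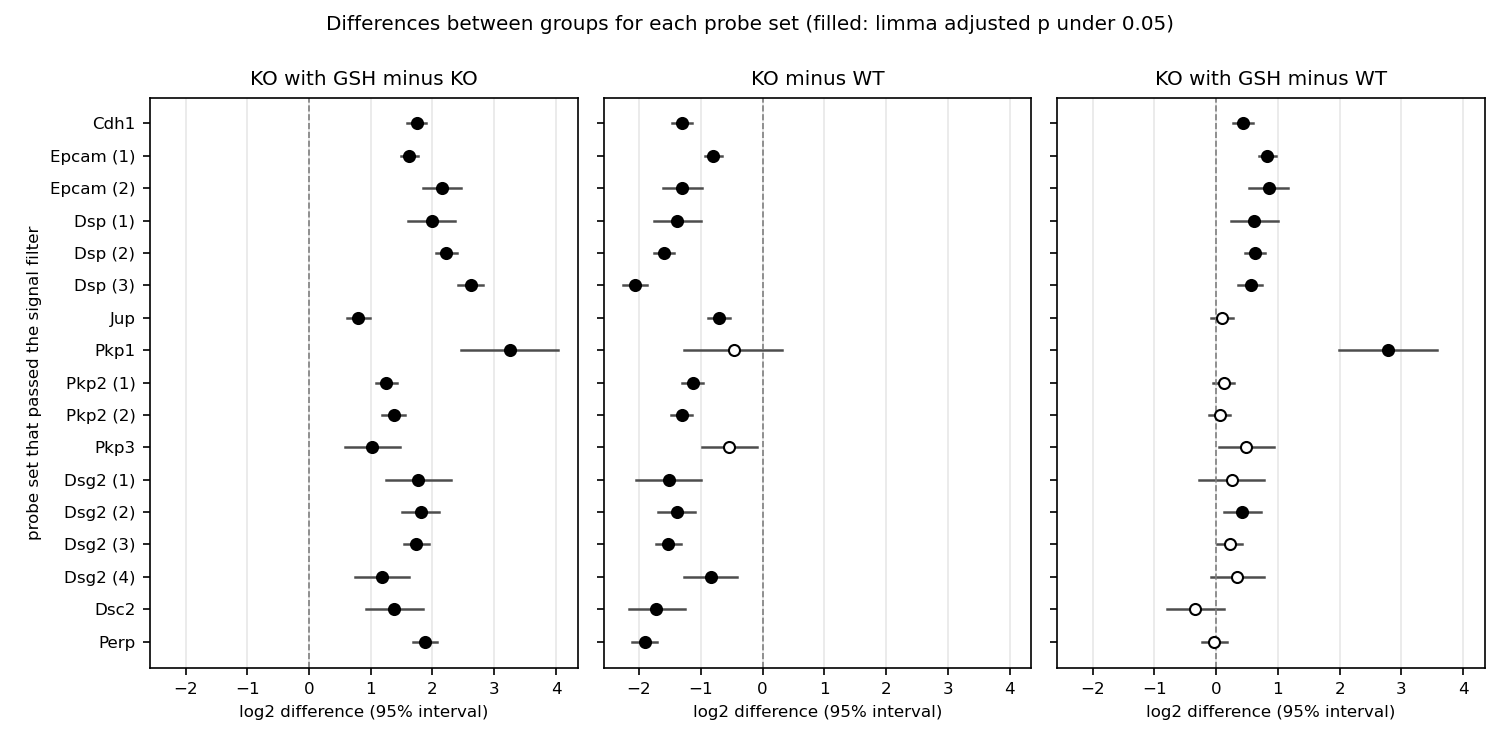
Log2 differences with 95% intervals from limma for the 17 member probe sets that passed the filter, in the 3 comparisons; filled points have an adjusted p under 0.05, and a number in parentheses tells apart the probe sets of a gene. By main probe set and without Pkp1, knockout with GSH minus knockout runs from 0.80 for Jup to 2.22 for Dsp, and knockout minus wild type from -1.91 for Perp to -0.54 for Pkp3.

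Where cells with GSH stood relative to wild-type cells varied among the members. The intervals of the 5 that were not called (Jup, Pkp2, Pkp3, Dsc2 and Perp) ran from 0.58-fold to 1.91-fold of wild type, so these data do not show that their levels were equal. Within set 2 the differences of the 10 genes with GSH over knockout were 0.71 to 3.00, and within set 3 they were 0.68 to 3.76, Pkp1 included. For knockout against wild type they were -1.98 to -0.42 within set 2 and -1.77 to 0.03 within set 3. With GSH over knockout the groups did not overlap for 10 of 10 members, of which Pkp1 had to differ. Of all genes, 19.0% lay higher without overlap. In knockout below wild type 8 of 10 did not overlap, Pkp1 not among them, against 16.2% of all genes that lay lower. Over all 17 member probe sets that passed the filter, 17 were called higher with GSH than in knockout cells (18.4% of all probe sets). In knockout against wild-type cells 15 were called lower (14.6%), and with GSH against wild-type cells 8 were called higher (22.5%). The 17 and the 8 called higher with GSH include Pkp1, which had to differ. Of the 6 left out by the filter, a fit without the filter called 3 higher with GSH over knockout, 2 lower in knockout than in wild type and 0 with GSH against wild type. The shares given here are of probe sets that passed the filter, so these counts have no share of all probe sets beside them. After the mean of each set had been removed, the 45 pairs of members correlated across the 9 arrays at 0.47 (Pkp1 with Dsc2) to 1.00 (Cdh1 with Dsp), with a median of 0.89. These points share arrays and fall into the 3 groups.

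Other components of the desmosome were few on these arrays: 7 of 10 listed genes were named on the array and 3 passed the filter. All 3 were higher with GSH than in knockout cells. Periplakin (Ppl) and envoplakin (Evpl), plakins related to desmoplakin, rose with GSH by 1.42 and 1.34 and fell by 1.15 and 0.97 on the log2 scale in knockout against wild-type cells (limma adjusted p = 0.00021, 0.00034, 0.0015 and 0.0045). Pkp4, a plakophilin relative that is also found at adherens junctions, rose by 0.36 with GSH (adjusted p = 0.0074) and differed by -0.06 between knockout and wild-type cells (adjusted p = 0.67). Dsg1a, Dsg1b and Dsc1, cadherins of stratified epidermis, were at or below the control level on all arrays. Dsc3, also left out by the filter, exceeded that level on 2 of 3 arrays with GSH, 2 of 3 knockout arrays and 0 of 3 wild-type arrays.

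The cytoplasmic and nectin partners of E-cadherin did not move as one. Of 16 genes, 8 were higher and 4 lower with GSH than in knockout cells (median 0.31), and 0 were higher and 8 lower in knockout than in wild-type cells (median -0.25). Nectin4, an epithelial immunoglobulin-type adhesion molecule, averaged 690 ± 111 with GSH, 193 ± 5.93 in knockout and 367 ± 38.3 in wild-type cells (SD, n = 3 each; 1.82 and -0.92, limma adjusted p = 7.5e-07 and 0.0003). Afdn, which links nectins to actin, differed by 1.07 and -0.56, and p120-catenin (Ctnnd1), which binds the E-cadherin tail and keeps it at the surface, by 0.54 and -0.53 (limma adjusted p from 3.3e-05 to 0.0052). Nectin3 differed by 0.69 and -0.78 (adjusted p = 0.0001 and 6.9e-05).

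Other cadherins were lower with GSH or did not pass the test. Of the 6 that passed the filter, 0 were higher and 4 lower with GSH than in knockout cells (median -1.05), 1 was higher and 1 lower in knockout than in wild-type cells, and 4 did not pass there. N-cadherin (Cdh2), the neural and mesenchymal cadherin, read 739, 743 and 1080.5 in knockout cells with GSH, against 1979.9, 1729 and 2388 in knockout cells and 3138, 3190 and 3630 in wild-type cells. All 3 groups were apart, with wild type highest, so that knockout cells were below wild-type cells as for Cdh1, and the log2 differences were -1.26 with GSH against knockout and -0.72 for knockout against wild type (limma adjusted p = 4.2e-07 and 7.2e-05). Cdh11, the cadherin of mesenchymal cells, was 2141 ± 132 with GSH, 8411 ± 876 in knockout and 9181 ± 289 in wild-type cells (-1.97 with GSH against knockout, limma adjusted p = 8.2e-10; -0.13 for knockout against wild type, adjusted p = 0.13). P-cadherin (Cdh3), which in skin marks basal keratinocytes, exceeded the control level on 1 of 3 arrays with GSH and averaged 65.0 ± 19.2 there, 714 ± 154 in knockout and 635 ± 77.9 in wild-type cells (-3.47, limma adjusted p = 2.6e-07). Cdh13, a cadherin without a cytoplasmic tail, differed by -0.83 with GSH against knockout and by 0.55 for knockout against wild type (limma adjusted p = 0.0012 and 0.019).

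**Figure D3:**
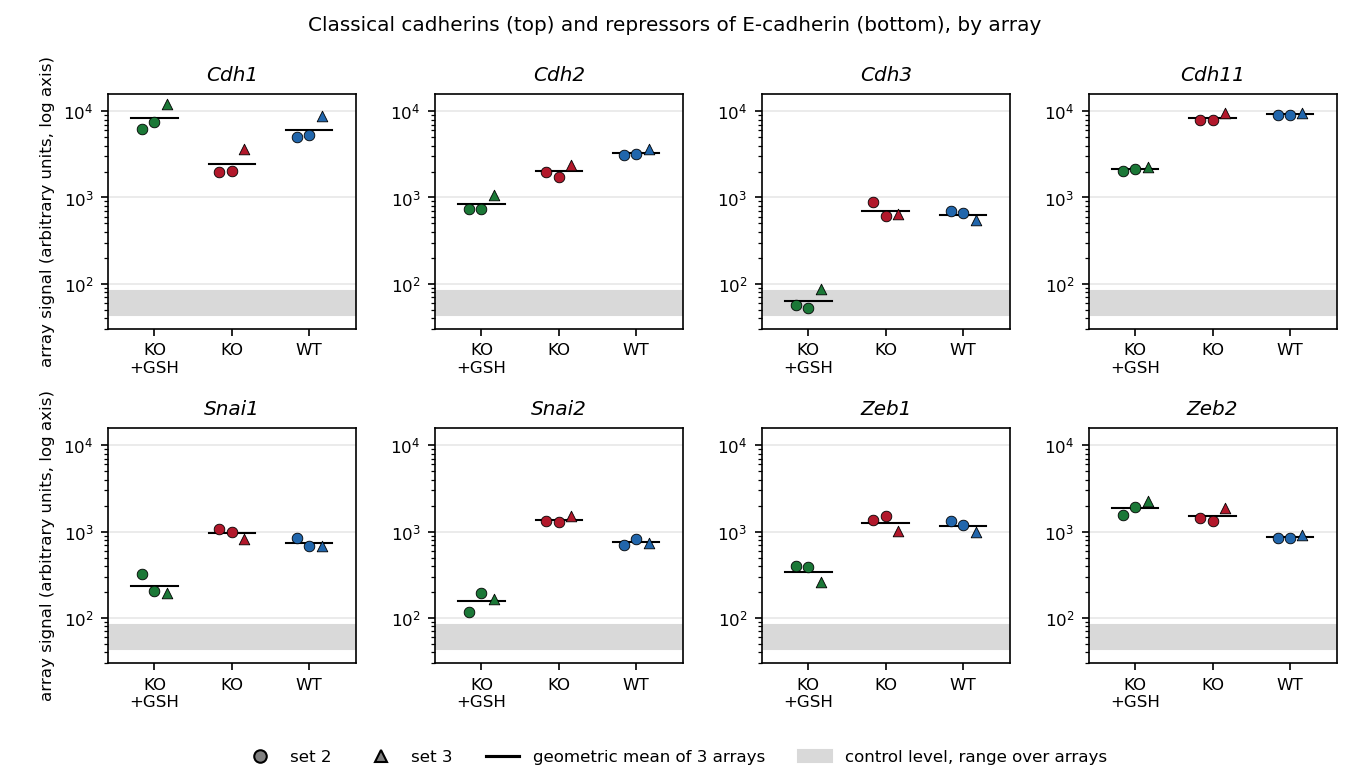
Signals on each array (log axis, arbitrary units) of 4 classical cadherins and 4 repressors of E-cadherin, by group from left to right: knockout with GSH, knockout, wild type; circles are set 2, triangles set 3, lines geometric means and the grey band the range of the control level over arrays. Cdh1 is lowest in knockout cells, Zeb2 in wild-type cells, and Cdh2, Cdh3, Cdh11, Snai1, Snai2 and Zeb1 with GSH.

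Of the 6 listed repressors of E-cadherin, 1 was higher and 5 lower with GSH than in knockout cells (median -1.65), and 2 were higher, 1 lower and 3 not called in knockout against wild-type cells (median 0.26). Snai2 (Slug) read 118, 192 and 168 in knockout cells with GSH, against 1337, 1302 and 1504 in knockout cells and 698, 829 and 733 in wild-type cells. Its 3 groups were separate, in the reverse order to Epcam, at -3.14 with GSH against knockout and 0.88 for knockout against wild type (limma adjusted p = 4.9e-08 and 0.0019). Zeb1 averaged 350.0 ± 76.3 with GSH, 1291 ± 263 in knockout and 1165 ± 173 in wild-type cells, and Snai1 242 ± 71.8, 959 ± 127 and 735 ± 98.2 in the same groups. Both fell with GSH against knockout, by 1.89 and 2.02 on the log2 scale (limma adjusted p = 2.7e-08 and 1.7e-06), and neither passed between knockout and wild type (0.14 and 0.38, adjusted p = 0.29 and 0.095). Twist1 fell in both comparisons, by 1.36 with GSH and by 0.66 in knockout against wild-type cells (limma adjusted p = 0.00016 and 0.021). Zeb2, named after its values were seen because it was the exception, was higher in both, by 0.31 and 0.81 (adjusted p = 0.026 and 9e-05). No binding of these factors to the promoters shown was measured.

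Regulators that favour epithelial genes were called higher with GSH than in knockout cells for 4 of the 6 that passed the filter and lower for 0, and 4 were lower in knockout than in wild-type cells. Esrp1, the splicing factor of epithelial isoforms, read 796, 684 and 874 in knockout cells with GSH, against 96.1, 71.3 and 125 in knockout cells and 380, 399 and 481 in wild-type cells. The groups were separate, at 3.04 and -2.14 (limma adjusted p = 4.0e-08 and 1.3e-06). Grhl2, the grainyhead-like factor that activates Cdh1 in mouse epithelia, averaged 476 ± 91.5 with GSH, 248 ± 33.9 in knockout and 280 ± 33.9 in wild-type cells. It was higher with GSH by 0.93 (limma adjusted p = 0.0015) and differed by -0.18 between knockout and wild type (adjusted p = 0.49). Esrp2 and Klf5 were higher with GSH by 1.44 and 1.04 (limma adjusted p = 5.7e-06 and 1.9e-05), and both were lower in knockout than in wild-type cells (adjusted p = 2.9e-05 and 1.1e-05).

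Epithelial surface proteins and the matriptase system, the membrane protease and its inhibitors that act at epithelial junctions, moved with the members. Of 12 that passed the filter, 12 were higher and 0 lower with GSH than in knockout cells (median 1.50), and 11 were lower and 0 higher in knockout than in wild-type cells (median -1.03). Cldn7, a claudin known to bind EPCAM, averaged 3127 ± 197 with GSH, 584 ± 66.4 in knockout and 1614 ± 92.2 in wild-type cells (2.43 with GSH over knockout, limma adjusted p = 5.0e-09). Itgb4, the hemidesmosome integrin that anchors keratin to the basement membrane, averaged 877 ± 69.9, 109 ± 15.0 and 461 ± 57.9 in the same groups (3.02, limma adjusted p = 3.0e-08). The matriptase inhibitors Spint1 and Spint2 rose with GSH by 1.63 and 1.72 (limma adjusted p = 1.4e-08 and 4.9e-08).

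**Figure D4:**
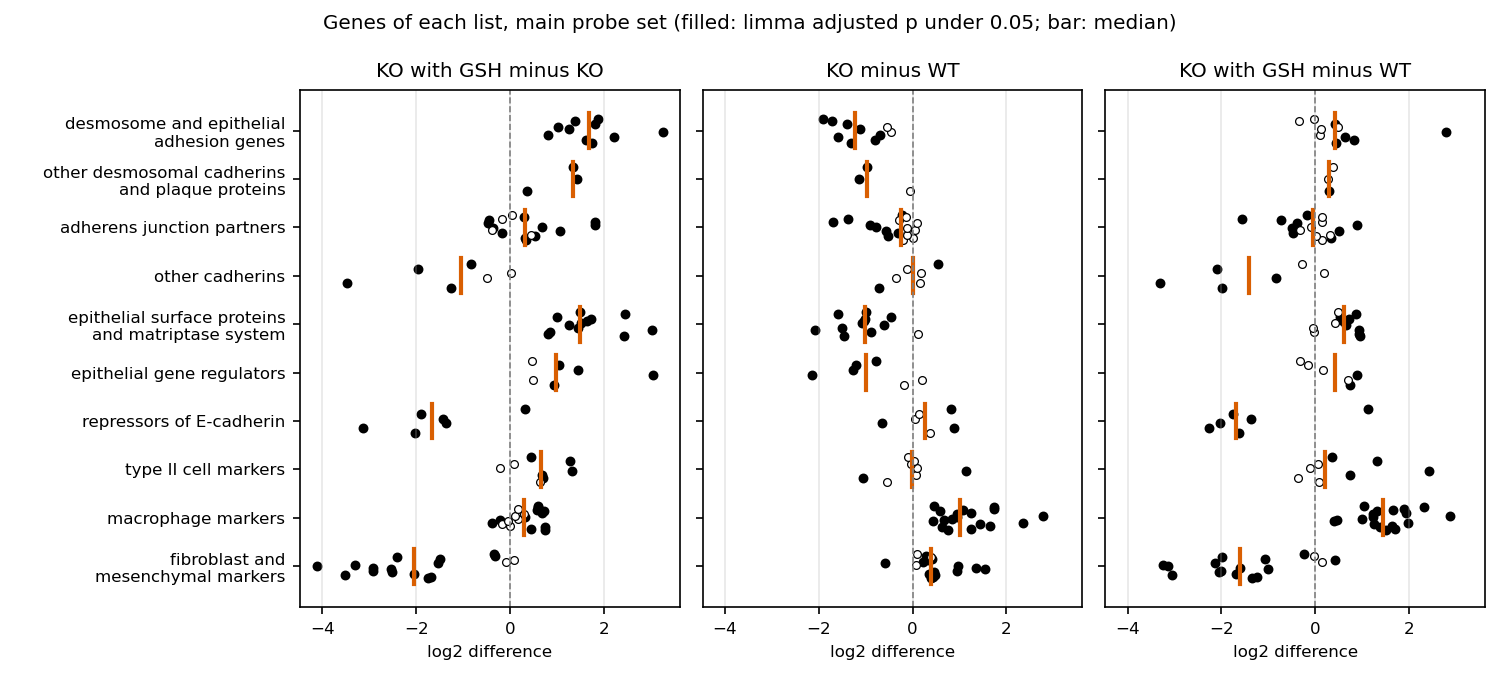
Log2 differences of single genes, 1 point per gene that passed the filter, by gene list and comparison; filled points have a limma adjusted p under 0.05, and bars mark each list's median. With GSH against knockout the medians are 1.69 for the members (1.62 without Pkp1), 1.50 for epithelial surface proteins and -1.65 for repressors of E-cadherin. Pkp1 passed the filter only through its signal with GSH.

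Markers of other cell types moved in the same comparisons as the members. The summed signal of 17 fibroblast and mesenchymal markers was 91714 to 106943 with GSH, 166932 to 224322 in knockout and 139699 to 154295 in wild-type cells, and 15 of 17 were lower and 0 higher with GSH than in knockout cells. In knockout against wild-type cells 13 of them were higher and 1 lower. The 18 macrophage markers summed to 155981 to 184156 with GSH, 121459 to 142055 in knockout and 69997 to 71566 in wild-type cells, and 18 of 18 were higher in knockout than in wild-type cells. With GSH against knockout, 9 of the 18 were higher and 2 lower. The 11 type II markers summed to 8417 to 9854 with GSH, 5618 to 6448 in knockout and 5454 to 6628 in wild-type cells. The brightest was Lpcat1 (means 2777, 2020 and 2175 in the same groups), and Cebpa averaged 1806, 749 and 731. The surfactant genes added little to this sum. Of the 8 type II markers that passed the filter, 5 were higher with GSH than in knockout cells, and 1 was higher and 1 lower in knockout than in wild-type cells. Sftpc, the defining surfactant protein of type II cells, was left out by the filter at 73.8 to 132 with GSH, 55.1 to 145 in knockout and 25.5 to 44.6 in wild-type cells, where 0 of 3 arrays exceeded the control level. Sftpa1 was also left out, at means of 92.9, 82.9 and 62.2 in the same groups. Sftpd and Sftpb passed the filter and did not follow Sftpc. Sftpd averaged 349 ± 37.1, 218 ± 56.1 and 448 ± 52.2 in the same groups, and Sftpb 356 ± 96.1, 241 ± 99.9 and 338 ± 101 (SD, n = 3 each). No macrophage, fibroblast, type I, mesothelial, endothelial or airway marker was at or below the control level on all arrays, and Cd3g was the only lymphocyte marker that was. A single array above that level was enough to escape this count, so it does not show that each marker was expressed. Cd4, for example, exceeded it on 1 of 3 arrays with GSH, 0 of 3 knockout arrays and 0 of 3 wild-type arrays. The part of these markers in the differences of the members was not tested.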

How the data were processed

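RNA was profiled on 9 arrays, and the authors deposited 1 intensity per probe set and array on a linear scale. Every array had a 2% trimmed mean of 500, which shows scaling to a common level. No source names the software that made these values. Of 45101 probe sets, 64 controls were left out. Here, intensities (2 values at or below 0 set to 0.1) were taken to log2 without further normalisation, and probe sets with a mean log2 below the median (a geometric mean of 116) were left out, which kept 22519. GEO's platform annotation gave 1 symbol to 34945 probe sets (34741 of them matched a RefSeq gene identifier), several to 932 and none to 9160.

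The model, run in limma 3.58.1 (R 4.3.3) on all arrays together, had terms for group and set; variances were moderated along an intensity trend, with 5 residual degrees of freedom and 6.08 from the prior. The fit was tested on simulated data. The control level is the 95th percentile of 27 unspiked control probe sets on each array. Median signals were 101.6 to 142.6, and 3 arrays per group limit the precision. Folds against a group at the control level on every array are lower bounds.

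Named genes were every member probe set, up to 4 genes of each list other than cell type markers with the smallest p for knockout with GSH against knockout, and the genes whose profile was most like that of the members (5) and of Cdh1 (3). Zeb2, Nqo1, Dsg1a, Dsg1b, Dsc1, Dsc3 and the cell type markers named were chosen after their values were seen. The members and lists were chosen with earlier results of these data known. Alternatives changed the set term, the filter, the trend, the floor, the arrays and the probe set rule. The titles give the 2 knockout groups the same replicate numbers, and same-numbered arrays correlated at 0.32, 0.29 and 0.67 in their deviations from group means. Crossed pairs within set 2 reached 0.24 and 0.39, so these correlations do not show that the numbers pair the arrays. The model described has no term for pairs, and the replicate number served as a block only in an alternative. Gene coordinates were not used here, since the sources name no build, and protein sequences were not analysed here.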

Additional observations from a re-analysis of the deposited data

How the results depend on the processing

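Counts of members in this section include Pkp1, which had to differ with GSH. The number of member genes called was 10 with GSH against knockout and 8 for knockout against wild type in the fit described. Leaving out 1 array gave 10 to 10 and 8 to 9. With GSH against wild type it was 5, and 4 to 6 when 1 array was left out, but 2 without the set term and 2 under the fold and pairwise rule of the series design text. Among 591 recomputed differences of single members, 571 kept their side of the threshold, 11 lost the call and 9 gained one. Of those called in either fit, 0 changed direction. Differences called in neither fit could change sign and still count as kept. With GSH against wild type, Jup ran from -0.08 to 0.16 and Perp from -0.08 to 0.01 over the alternatives. Among all probe sets, calls with GSH against knockout were 7964, with 4574 without the set term, 3411 under the design text's rule and 6659 to 7847 with 1 array left out. Knockout against wild type gave 6560, with 2774, 2290 and 4500 to 6825 under the same changes, and with GSH against wild type 10074, with 6181, 4519 and 8184 to 10452. With the replicate number as a block in place of the set, calls were 5824 with GSH against knockout, 3253 for knockout against wild type and 6586 with GSH against wild type, and members called were 10, 8 and 4. Wild-type arrays share only a number with the others: same-numbered knockout arrays correlated with them at 0.42 and -0.49. Under that block Cdh1 and Dsp with GSH against wild type were 0.87 and 0.95. Keeping only probe sets above the 70th percentile of signal left 7 of the 10 members. The causes of these changes were not tested. Signals near the control level, as for Pkp1 in knockout cells, limit what can be said of their ratios.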

Other observations

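Some genes outside the list followed the members closely. Across the 9 arrays and 11610 genes, the log2 signals most like the average of the members' standardised profiles were those of Bex1 (Pearson r = 0.995), Krt17 (0.994), Inhbb (0.993), Gprc5a (0.993) and Slc6a14 (0.993). After the set means had been removed, Wnt7a (0.998), Slc6a14 (0.997), Bex1 (0.997), Lurap1l (0.996) and Mapk13 (0.996) were the closest. The genes most like Cdh1 alone were Afp (0.992), Sgms1 (0.987) and Cytip (0.987), and after removal of the set means Irx3 (0.998), Sema7a (0.998) and Bex1 (0.996). These correlations describe 9 arrays in 3 groups, and the genes were searched for likeness. Krt17, a keratin of basal and stressed epithelium and so of the filament type that desmosomes anchor, averaged 689 ± 53.2 in knockout cells with GSH, 69.6 ± 9.73 in knockout and 395 ± 53.4 in wild-type cells (SD, n = 3 each). Wnt7a, a secreted WNT ligand, averaged 1191 ± 134 with GSH, 84.4 ± 20.5 in knockout and 612 ± 144 in wild-type cells.

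Mesothelial markers divided in themselves. With GSH against knockout 2 of 7 were higher (Msln and Krt19) and 5 lower, and in knockout against wild-type cells 0 were higher and 6 lower. Msln, a surface glycoprotein that marks mesothelium, averaged 7052 ± 473 with GSH, 944 ± 105 in knockout and 5699 ± 612 in wild-type cells, and Krt19, a keratin of mesothelium and simple epithelia, averaged 8235 ± 986, 1370 ± 234 and 6249 ± 628 in the same groups. The other 5 fell with GSH against knockout. Gpm6a exceeded the control level on 0 of 3 arrays with GSH, so its fall is known only as at least 5.64-fold. Upk3b exceeded that level on 1 of 3 arrays with GSH, so its difference is not exact either. On the log2 scale the fitted differences were -3.11 for Gpm6a, -2.71 for Upk3b, -2.27 for Wt1, -2.10 for Lrrn4 and -1.27 for Upk1b (limma adjusted p from 6.1e-09 to 3.6e-07). In knockout against wild-type cells they were -0.36, -2.38, -0.31, -1.22 and -1.87 in the same order, with Gpm6a not called (adjusted p = 0.18).

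The 10 type I markers summed to 13418 to 14807 with GSH, 12193 to 15421 in knockout and 16431 to 18773 in wild-type cells. Their brightest genes were Pdpn (means 4580, 5207 and 6316 in the same groups) and Cav1 (4374, 4550 and 5653). Ager, at 153, 68.7 and 332, added little to the sum. Of the 8 that passed the filter, 3 were higher and 0 lower with GSH than in knockout cells, and 0 were higher and 6 lower in knockout than in wild-type cells. The 7 club and ciliated cell markers summed to 8997 to 10249 with GSH, 6565 to 7644 in knockout and 13602 to 15189 in wild-type cells. Of these, 3 passed the filter, 2 were higher with GSH than in knockout cells and 1 was lower in knockout than in wild-type cells. Scgb1a1, the secretory protein of club cells, averaged 2490.0 ± 201 with GSH, 281 ± 6.29 in knockout and 6725 ± 869 in wild-type cells (log2 differences 3.14 and -4.57, limma adjusted p = 3.3e-10 and 1.1e-10). Tubb4b, a tubulin, averaged 6871 ± 694, 6477 ± 639 and 7130.0 ± 153 in the same groups and was not called in either comparison. Tubb4b and Scgb1a1 carried most of the summed signal of this list. Foxj1 was higher with GSH than in knockout cells by 0.87 (limma adjusted p = 0.04). Dnah5, Tppp3, Scgb3a2 and Cyp2f2 were left out by the filter. Scgb3a2 averaged 59.1 with GSH, 40.3 in knockout and 26.8 in wild-type cells, and Cyp2f2 54, 41.9 and 36.5. Scgb3a2 exceeded the control level on 1 of 3 arrays with GSH, 1 of 3 knockout arrays and 0 of 3 wild-type arrays, and Cyp2f2 on 2, 1 and 0. Neither gene was called in any comparison in the fit without the filter. With signals this near the control level, the order of their means cannot be set against that of Scgb1a1. The 10 endothelial markers summed to 2764 to 3458, 3096 to 3493 and 4716 to 5420 in the same groups. Of the 8 endothelial markers that passed the filter, 1 was higher and 2 lower with GSH than in knockout cells, and 0 were higher and 4 lower in knockout than in wild-type cells. The 7 lymphocyte markers summed to 550 to 616, 521 to 622 and 457 to 634, and the 2 that passed the filter were not called in any comparison. NRF2 target genes were called higher with GSH than in knockout cells for 6 of 9 and lower for 1, Nqo1 (-0.86, limma adjusted p = 0.0017), and 2 were not called. In knockout against wild-type cells 1 was higher and 8 were lower. Slc7a11, Hmox1, Me1 and Gsr, the cystine importer, heme oxygenase, malic enzyme and glutathione reductase, were higher with GSH than in knockout cells by 1.54, 0.81, 0.45 and 0.61. In knockout against wild-type cells they were at -2.30, -0.40, -0.98 and 1.23 (limma adjusted p from 1.0e-07 to 0.0041). The part of these lists in the differences of the members was not tested.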
